A study of Mus musculus with 20 samples.

Results

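Collagens are the triple-helical proteins of the extracellular matrix, and each helix is assembled from 3 polypeptide chains that are encoded by separate genes. The collagen genes described here are all those whose symbol is Col, a type number, the letter a and a chain number, a rule that used no measured value. It found 44 genes in each of the 2 gene tables, of 55487 rows for prefrontal cortex and 57180 for hippocampus. Of these, 11 encode fibrillar collagens, 6 encode the type IV chains of basement membranes, and 27 belong to the other families.

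Fibrillar collagens form the banded fibrils that carry tension. In the brain they are known mainly from the meninges, the perivascular space and the fibroblasts there. Type IV collagen forms the sheet-like network of the basement membrane around brain vessels and under the pial surface, made mostly of α1 and α2 chains by endothelial and mural cells. Of the other families, the beaded filament collagens (type VI) lie close to cells, and the fibril-associated collagens (FACIT) decorate fibrils. Transmembrane collagens sit in the plasma membrane, and multiplexins are proteoglycans of basement membrane zones.

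Poly(A) RNA was sequenced from wild-type (WT) C57/BL6 mice of 2 to 6 months of age. Prefrontal cortex was dissected from males 24 hours after 5 mg/kg of intraperitoneal lipopolysaccharide (LPS), a bacterial endotoxin, or after 0.9% saline, with 4 libraries in each group. Hippocampus was dissected 24 hours after 0.2 mg/kg nicotine or 0.9% saline, with 6 libraries in each group. All animals carried the wild-type genotype, and each group received 1 dose and was taken at 1 time. Each tissue was a batch of its own with its own gene table, so no test was made across tissues. Totals were 36371084 to 46106526 counts per prefrontal cortex library and 51969343 to 68196280 per hippocampal library.

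For 4 of the 8 cortex libraries the labels disagreed, with the title giving one treatment and the column name the other, and the column name was used here. Lcn2, an acute-phase gene used to check the labels, stood at 254 to 367 CPM (gene counts normalised for library size) in the 4 libraries whose column names give LPS. It stood at 0.676 to 1.39 CPM in saline replicates 1 to 3 and at 13.5 CPM in saline replicate 4. Grouping by title gave 0 collagens higher and 0 lower, and it also gave 0 calls among all 17760 genes tested. With the 4 libraries whose labels agree, 6 collagens were higher and 14 lower, against 15.8% and 16% of all genes in that fit. The tissues held their own markers: 8 hippocampal markers summed to 901 to 1302 CPM in hippocampus and 273 to 339 CPM in cortex. One of them, Cpne7, gave 251 CPM in saline hippocampus and is listed at 0 in every cortex library, which makes up part of that gap.

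The 6 Col4 genes lie in 3 pairs that are arranged head to head in the genome. With LPS both genes of one pair were higher, both of another were lower, and neither of the remaining pair passed the test. Col4a1 and Col4a2 lie on chromosome 8, with annotated start sites at 11312826 on the minus strand and 11312805 on the plus strand, so that their first exons overlap by 22 bases (mm10). Col4a4 and Col4a3 lie on chromosome 1 with 71 bases between their starts (82586849 and 82586921). Col4a6 and Col4a5 lie on chromosome X with 1308 bases between theirs (141474076 and 141475385). The sequences that follow show the start shared by the pair that rose with LPS, and the upstream windows of the pair that fell and of Col5a3, the fibrillar gene that rose. They are from RefSeq on GRCm38.p6. Capitals mark a GC box (GGGCGG, or CCGCCC where it reads on the other strand) or a CCAAT box, both searched on both strands.
Col4a1 and Col4a2 shared start (chr8:11312805-11312826, plus strand): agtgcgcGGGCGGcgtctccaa
Col4a5 (chrX:141475169-141475369, plus strand): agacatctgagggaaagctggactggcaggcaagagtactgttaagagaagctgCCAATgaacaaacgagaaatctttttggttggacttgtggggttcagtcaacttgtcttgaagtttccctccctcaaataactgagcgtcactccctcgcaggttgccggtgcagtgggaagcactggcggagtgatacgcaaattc
Col4a6 (chrX:141474096-141474326, minus strand): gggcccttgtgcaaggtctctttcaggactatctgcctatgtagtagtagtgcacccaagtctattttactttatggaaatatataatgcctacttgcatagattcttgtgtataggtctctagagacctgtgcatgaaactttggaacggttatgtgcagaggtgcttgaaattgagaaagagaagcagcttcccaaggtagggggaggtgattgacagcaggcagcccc
Col5a3 (chr9:20815118-20815317, minus strand): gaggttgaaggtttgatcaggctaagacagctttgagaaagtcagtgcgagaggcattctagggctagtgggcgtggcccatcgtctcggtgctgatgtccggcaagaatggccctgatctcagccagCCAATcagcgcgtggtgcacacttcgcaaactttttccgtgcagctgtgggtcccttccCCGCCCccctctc
The shared start held 1 GC box in 22 bases of which 72.7% were G or C. The Col5a3 window held 1 CCAAT box and 1 GC box, and the Col4a5 window 1 CCAAT box. In the Col4a6 window none of the 6 motifs searched was present. RefSeq windows of 300 bases were matched for 35 of the 44 genes (38 windows). GGGCGG stood in 60.53% of those windows and in 35.66% of all 32851 windows. CCAAT stood in 34.21% against 37.41%, and TATAAA in 13.16% against 13.62%. The AP-1-type motif TGANTCA stood in 1 of the 38 windows (2.63% against 7.81%) and the STAT-type motif TTCNNNGAA in 2 (5.26% against 8.3%). The NF-kB-type motif GGANTTTCC stood in 0 of the 38 (0% against 1.25%). None of these shares was tested, and counts this small cannot show a lack of a motif. No motif overlaps were removed, and a match describes letters, not binding.

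In saline cortex the collagen transcript pool was led by a few genes. Per kilobase of exon, Col6a1, the α1 chain of beaded filaments, was highest at 14.3 ± 2.28 CPM per kb (SD, n = 4). The vessel-type chains Col4a2 and Col4a1 followed at 6.20 ± 0.357 and 4.79 ± 0.193 CPM per kb, and their ranges did not overlap. Next were Col23a1, a transmembrane collagen, at 3.86 ± 0.531, Col9a2 at 3.45 ± 0.58 and Col9a3 at 2.72 ± 0.259 CPM per kb, and the ranges of Col23a1 and Col9a2 overlapped. Per kb, the leading fibrillar genes were Col11a2 at 2.29 ± 0.266, Col1a1 at 1.81 ± 0.787 and Col1a2 at 1.72 ± 0.586 CPM per kb. Lengths are the merged exons of all annotated transcripts, 12.4 kb for Col1a2 and 6.56 kb for Col1a1, and the order depends on them. In CPM without length Col1a2 led the fibrillar genes at 21.4, with Col11a2 at 15.7 and Col1a1 at 11.9. Col4a3 was last at 0.0299 ± 0.00616 CPM per kb.

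Saline hippocampus held most of the same leaders in another order. Col4a2 was highest at 6.04 ± 1.06 CPM per kb (SD, n = 6), followed by Col6a1 at 5.44 ± 0.437, Col25a1 at 4.59 ± 0.583 and Col4a1 at 4.48 ± 0.587. These neighbours overlapped in range, so their order is not firm. Col25a1 encodes a transmembrane collagen of neurons that is also known from amyloid plaques. Col9a3 came next at 3.93 ± 3.35 CPM per kb, with an SD nearly as large as its mean. Col24a1, a minor fibrillar collagen, stood at 0.640 ± 0.136 CPM per kb in saline cortex and at 0.0381 ± 0.0152 in saline hippocampus. The tables were normalised separately, and these levels are set side by side with no test.

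**Figure D1:**
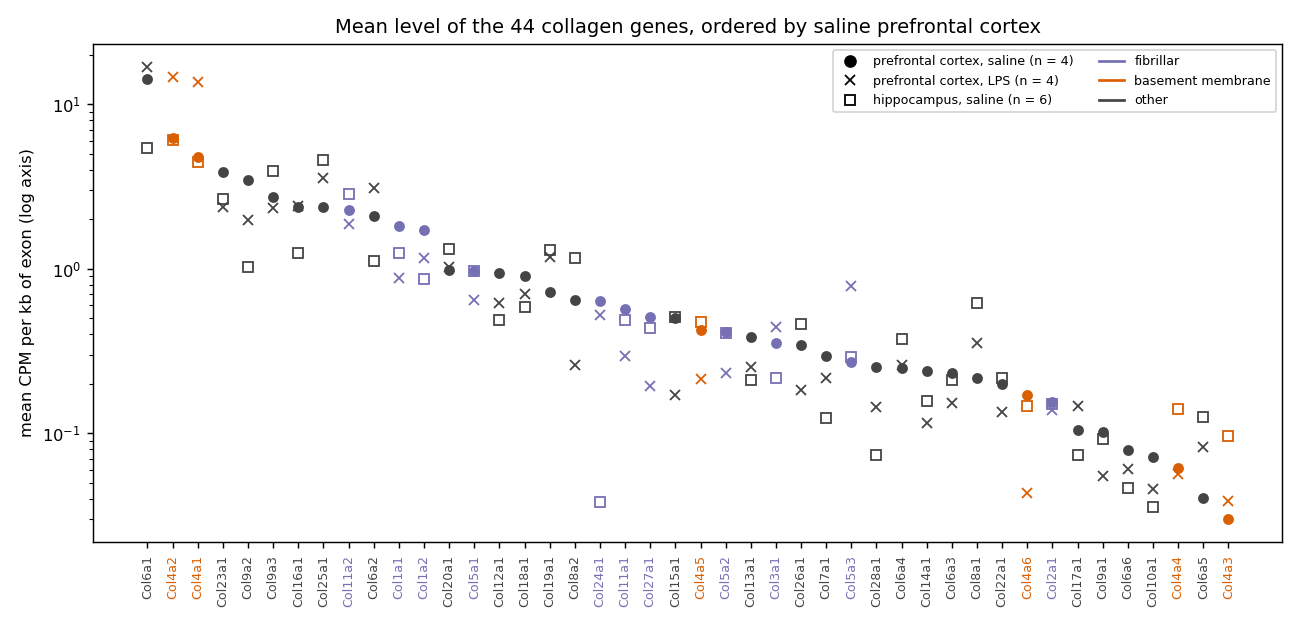
Mean level of each of the 44 collagen genes in CPM per kb of exon (log axis), for saline cortex (circles), LPS cortex (crosses) and saline hippocampus (squares), coloured by class. Col4a1 and Col4a2 stand near the top in all 3 groups, at 13.7 and 14.6 CPM per kb with LPS, and Col24a1 is the gene furthest apart between the saline groups.

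LPS raised some collagen genes and lowered more. Of the 43 collagen genes tested in prefrontal cortex, 6 were higher and 14 lower at an edgeR adjusted p under 0.05, and 23 did not pass. Among all 17760 genes tested, 21.5% were higher and 19.7% were lower. Read against those shares, the collagens held fewer higher and more lower calls. Their median log2 change was -0.38, against 0.0092 over all genes tested. Saline and LPS libraries were fully separated in CPM for 20 of the 43, and for 37.1% of all genes tested. Col10a1, a cartilage collagen with 0 to 25 counts per library, was too low to be tested. The titles number the libraries as biological replicates, and p-values refer to the scatter between them. In bulk tissue, fewer cells of a type and less RNA per cell cannot be told apart.

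**Figure D2:**
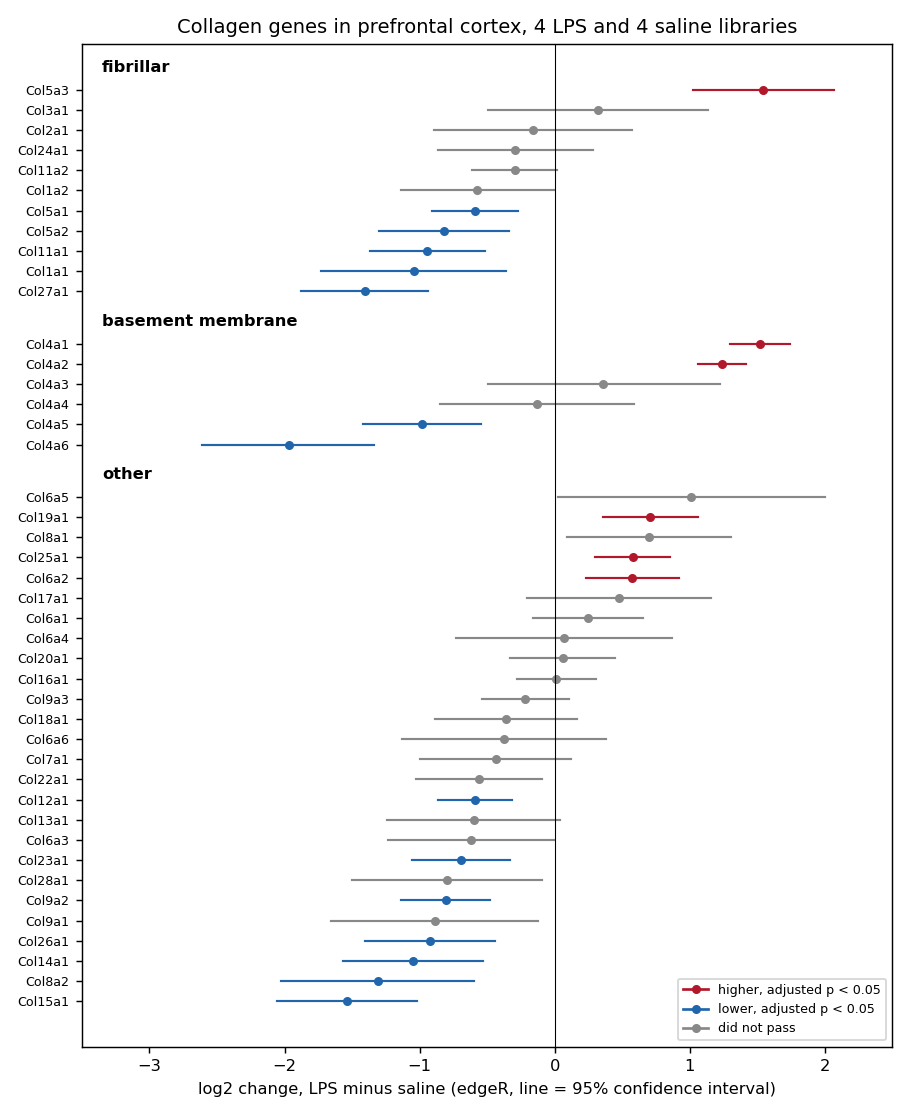
Log2 change with LPS in prefrontal cortex for the 43 collagen genes tested (points, edgeR) with 95% confidence intervals (lines), by class, from 4 libraries per group. Red marks the 6 genes that were higher and blue the 14 that were lower. Col4a6 at -1.97 is the lowest and Col5a3 at 1.54 the highest, with Col4a1 next at 1.52.

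Among the 6 basement membrane chains, 2 rose, 2 fell and 2 did not pass, where 21.5% of all genes tested were higher and 19.7% lower. Col4a1, the α1 chain of the common vascular network, read 37.6, 34.7, 34.4 and 36.2 CPM in saline replicates 1 to 4 and 82.3, 107, 119 and 102 CPM in LPS replicates 1 to 4. Every LPS library lay above the highest saline value, and the lowest of them was replicate 1. The log2 change was 1.52 with SE 0.10, a 2.87-fold rise (edgeR adjusted p = 1.9e-06).

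Col4a2, its α2 partner, read 41.1, 37.96, 41.3 and 43.7 CPM with saline and 87.3, 102, 106 and 92.6 CPM with LPS. The groups were again separate, and replicate 1 was again the lowest with LPS. The log2 change was 1.24 with SE 0.08, a 2.36-fold rise (edgeR adjusted p = 1.4e-06). Both genes passed in each of the 19 alternatives that kept the column names, with log2 changes from 1.43 to 1.61 for Col4a1 and from 1.19 to 1.32 for Col4a2. How reads in the 22-base overlap, 0.295% of the exon bases of Col4a1, were counted is not known, because the strand setting of the counting is not given. Among all members, Col9a3 shared the largest part of its exons with another gene, 6.07% with Tcfl5 on the other strand.

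The pair on chromosome X went the other way. Col4a5 read 2.90, 2.83, 3.51 and 2.19 CPM with saline and 1.56, 1.55, 1.27 and 1.41 CPM with LPS, so that no LPS library reached the lowest saline one. Its log2 change was -0.98 with SE 0.20 (edgeR adjusted p = 0.0027). Col4a6, the chain that joins α5 in some basement membranes, read 1.31, 1.72, 1.42 and 0.998 CPM with saline and 0.264, 0.399, 0.310 and 0.409 CPM with LPS. All 4 LPS libraries were under the lowest saline library, and its 11 to 67 counts per library make it one of the scarcer members tested. Its log2 change was -1.97 with SE 0.29, a 3.91-fold fall (edgeR adjusted p = 3.65e-04).

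Col4a3 and Col4a4, chains of the network known from the kidney filter, did not pass and were near the floor of the data. Col4a3, with 9 to 25 counts per library, had a log2 change of 0.36 with a 95% interval from -0.50 to 1.22. Col4a4 had -0.13 with an interval from -0.85 to 0.59, so neither interval is tight enough to show whether they differed.

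Of the 11 fibrillar collagens 5 were lower, 1 was higher and 5 did not pass, where 19.7% of all genes tested were lower and 21.5% higher. Col5a3, the α3 chain of type V collagen, was the one that rose. It read 1.82, 1.43, 1.69 and 2.40 CPM with saline and 3.65, 7.15, 5.98 and 4.68 CPM with LPS. The groups did not overlap, and the log2 change was 1.54 with SE 0.24, a 2.92-fold rise (edgeR adjusted p = 4.8e-04). Its sister chains Col5a1 and Col5a2, which with α3 build the type V fibrils, fell by 0.59 and by 0.82 on the log2 scale (edgeR adjusted p = 0.0070 and 0.011). Col5a1 did not pass with only the 4 libraries whose labels agree (edgeR adjusted p = 0.074).

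Col27a1, a minor fibrillar collagen, read 6.41, 6.17, 7.65 and 6.46 CPM with saline and 1.54, 3.26, 2.97 and 2.30 CPM with LPS. Its saline libraries were close together and all LPS libraries were lower. The log2 change was -1.41 with SE 0.22 (edgeR adjusted p = 4.6e-04). Col11a1, a chain of type XI collagen, fell by 0.94 on the log2 scale (edgeR adjusted p = 0.0028), while Col11a2 had a log2 change of -0.30 (edgeR adjusted p = 0.12).

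Col1a1, the main chain of type I collagen, read 14.5, 10.3, 17.3 and 5.44 CPM with saline and 5.78, 8.21, 4.99 and 4.07 CPM with LPS. Saline replicate 4 lay inside the LPS range, so the groups overlapped. The log2 change was -1.04 with SE 0.31 (edgeR adjusted p = 0.020). The call was lost without saline replicate 1 (edgeR adjusted p = 0.055) and without saline replicate 3 (edgeR adjusted p = 0.064). Col1a2, its partner chain, read 24.4, 19.6, 29.4 and 12.3 CPM with saline and 12.4, 21.6, 11.9 and 11.6 CPM with LPS. LPS replicate 2 stood apart from its group, and the log2 change of -0.57 did not pass (edgeR adjusted p = 0.097). It did pass without LPS replicate 2, at -0.84 (edgeR adjusted p = 0.021), and without saline replicate 4, at -0.77 (edgeR adjusted p = 0.021). It also passed with no filter on low counts, at -0.59 (edgeR adjusted p = 0.038), with the choroid plexus covariate, at -0.76 (0.0089), and with the 4 libraries whose labels agree, at -0.91 (0.0023). Col3a1, the type III collagen of vessel walls, had a log2 change of 0.32 with a 95% interval from -0.49 to 1.14.

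**Figure D3:**
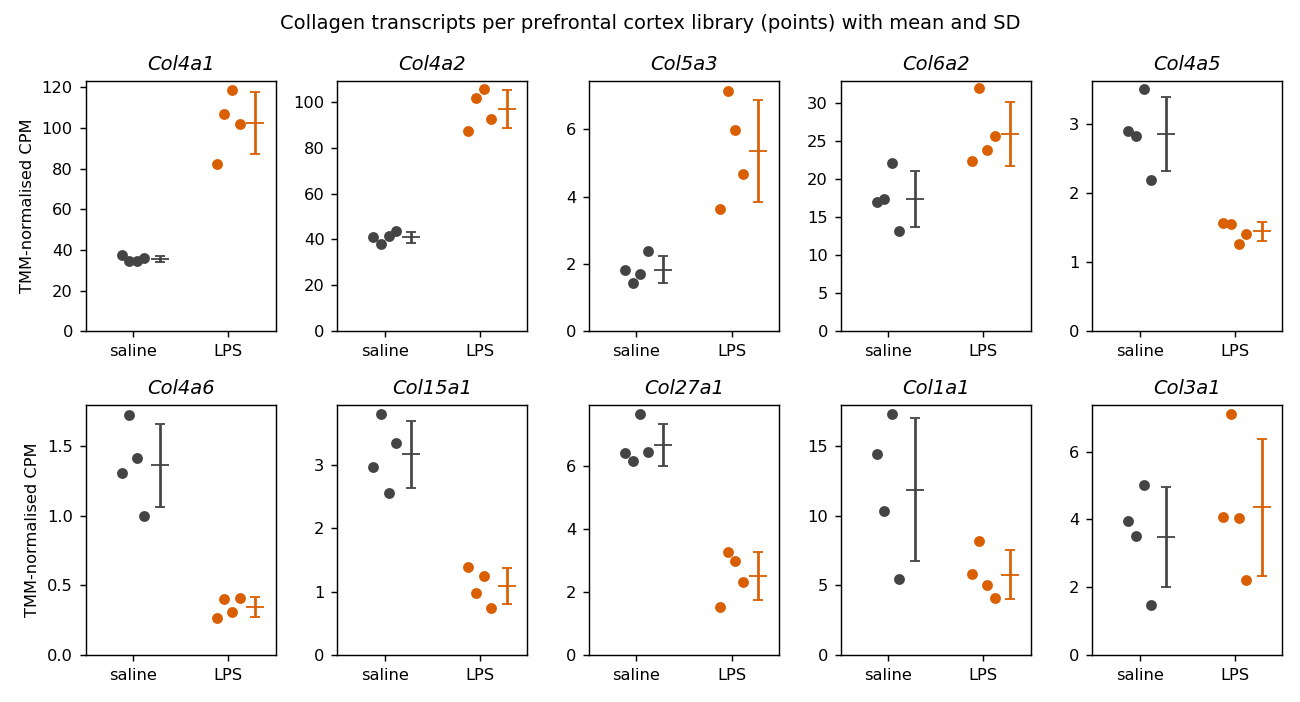
TMM-normalised CPM of 10 collagen genes in each prefrontal cortex library (points), with the mean and SD of each group (bars beside the points, n = 4), on axes that start at 0. Saline and LPS points are separate for Col4a1, Col4a2, Col5a3, Col6a2, Col4a5, Col4a6, Col15a1 and Col27a1, and they overlap for Col1a1 and Col3a1.

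The other families held 3 higher and 7 lower of 26 tested. These counts, and those of single families below, are to be read against 21.5% higher and 19.7% lower among all genes tested. The largest fall among them was that of Col15a1, a multiplexin of basement membrane zones. It read 2.98, 3.80, 2.56 and 3.35 CPM with saline and 1.39, 0.985, 1.24 and 0.742 CPM with LPS, with no overlap. Its log2 change was -1.54 with SE 0.24, a 2.90-fold fall (edgeR adjusted p = 4.7e-04). Col18a1, the other multiplexin and the source of endostatin, had -0.36 and did not pass (edgeR adjusted p = 0.25).

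Among the 9 FACIT collagens 1 rose and 3 fell. Col19a1 rose by 0.71 on the log2 scale, from 5.00 ± 1.03 to 8.17 ± 0.865 CPM (SD, n = 4, edgeR adjusted p = 0.0050). Col14a1, Col9a2 and Col12a1 fell by 1.05, by 0.81 and by 0.59 on the log2 scale (edgeR adjusted p = 0.0046, 0.0015 and 0.0032). Col9a2 and Col9a3 join in one type IX helix, and Col9a3 had -0.22 and did not pass (edgeR adjusted p = 0.26).

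Of the 6 beaded filament collagens only Col6a2 passed the test. It read 17.0, 17.4, 22.1 and 13.1 CPM with saline and 22.3, 31.9, 23.8 and 25.6 CPM with LPS. The lowest LPS library lay just over the highest saline library. The log2 change was 0.57 with SE 0.16 (edgeR adjusted p = 0.013). Col6a1, the most abundant collagen transcript per kb in saline, read 55.9, 76.8, 62.3 and 55.3 CPM with saline and 43.8, 88.0, 83.9 and 81.1 CPM with LPS. LPS replicate 1 was the lowest of all 8 libraries. The log2 change of 0.25 did not pass (edgeR adjusted p = 0.32), and without that library it was 0.43 and passed (edgeR adjusted p = 0.0058).

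Of the 4 transmembrane collagens 1 rose and 1 fell, and of 3 network and anchoring collagens tested 1 fell and 0 rose. Of those 3, 2 had an unadjusted edgeR p under 0.05, as had 49.6% of all genes tested. Col25a1 rose by 0.58 on the log2 scale, from 30.8 ± 4.43 to 45.9 ± 6.67 CPM (SD, n = 4, edgeR adjusted p = 0.0039). Its groups were only just separate, with LPS replicate 4 at 36.87 CPM and saline replicate 4 at 36.57 CPM. Col23a1 fell by 0.69 on the log2 scale, from 22.2 ± 3.05 to 13.7 ± 3.17 CPM (edgeR adjusted p = 0.0060). Col8a2, a network-forming chain, read 3.44, 2.96, 3.72 and 1.52 CPM with saline and 1.08, 1.85, 0.957 and 0.793 CPM with LPS. Saline replicate 4 was under LPS replicate 2, so the ranges overlapped, and the log2 change was -1.31 with SE 0.33 (edgeR adjusted p = 0.0078). Col26a1, a short collagen outside the main families, fell by 0.92 on the log2 scale (edgeR adjusted p = 0.0062).

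Summed over a class, the balance of the collagen pool shifted. The 6 type IV chains together went from 81.9 ± 2.86 to 202 ± 23.3 CPM (SD, n = 4), and from 20.7% ± 2.03 to 40.3% ± 1.65 of collagen CPM. The 11 fibrillar genes went from 86.8 ± 17.2 to 62.0 ± 11.8 CPM, and from 21.7% ± 2.72 to 12.3% ± 1.09. For the 27 others the sums were 228 ± 16.6 and 238 ± 32.3 CPM. All type IV sums with LPS (172 to 227 CPM) were over all those with saline (77.9 to 84.0 CPM). Fibrillar sums overlapped, at 67.1 to 108 CPM with saline and 50.7 to 77.1 CPM with LPS. Sums are dominated by the abundant members and are given as a description, with no test.

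Ratios between chains that share a helix were compared for 9 pairs, chosen after the values of single genes had been seen. Per kilobase, Col4a1 stood at 0.774 ± 0.0426 of Col4a2 with saline and at 0.935 ± 0.0720 with LPS (SD, n = 4). Col4a5 stood at 2.53 ± 0.418 times Col4a6 with saline and at 5.14 ± 1.29 times with LPS. Col8a1 stood at 0.357 ± 0.0917 of Col8a2 with saline and at 1.48 ± 0.678 with LPS. Each of these 3 ratios had non-overlapping groups and a 2-sided exact permutation p of 0.0286, the smallest that 70 splits allow. Adjusted over the 9 pairs by Benjamini-Hochberg, the exact permutation p was 0.0857 for each. With only 3 of the 9 pairs at that floor, no adjusted p under 0.05 was possible. The adjusted values therefore decide nothing about these ratios, which are given as a description. Col1a1 to Col1a2 went from 1.02 to 0.764 (exact permutation p = 0.0571, adjusted 0.129). The merged exon lengths enter each ratio alike in both groups, so its level depends on them and its fold change does not.

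Transcripts of other cell types moved with LPS as well, and their part in the collagen changes was not tested. The summed CPM of 14 meningeal fibroblast markers were 205, 187, 235 and 124 in saline replicates 1 to 4 and 119, 188, 114 and 111 in LPS replicates 1 to 4. Saline replicate 4 and LPS replicate 2 were thus out of order with their groups, as they also were for Col1a1 and Col1a2. Of 13 markers tested, 5 were lower with LPS, led by Islr, Slc22a6 and Ogn, which fell by 1.26, by 2.22 and by 2.13 on the log2 scale, and 1 was higher, Dcn at 1.22. Among all genes tested 19.7% were lower and 21.5% higher. Igf2 is listed at 0 counts in every cortex library.

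With the mean log2 level of these markers as a covariate, 5 collagens were lower in place of 14 and 5 were higher in place of 6. Calls among all genes also dropped in that fit, to 9.85% higher and 8.77% lower. Those still lower were Col4a6 at -1.69, Col15a1 at -1.65, Col27a1 at -1.23, Col26a1 at -0.99 and Col5a1 at -0.72. The other 9 lower calls were lost, those of Col1a1, Col4a5, Col5a2, Col8a2, Col9a2, Col11a1, Col12a1, Col14a1 and Col23a1 (edgeR adjusted p from 0.057 for Col9a2 to 0.97 for Col1a1). The higher calls of Col19a1, at 0.44 (edgeR adjusted p = 0.13), and of Col25a1, at 0.49 (edgeR adjusted p = 0.073), were lost too. Col6a2 stayed higher at 0.97, and Col4a1, Col4a2 and Col5a3 stayed higher at 1.52, 1.22 and 1.4998. Col1a1 came to -0.0098, and Col3a1 came to 1.49 and passed (edgeR adjusted p = 0.0032). The markers themselves moved with LPS, so the covariate and the treatment cannot be fully told apart.

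The marker counts that follow are to be read against 21.5% higher and 19.7% lower among all genes tested, and several are near those shares. Endothelial markers summed to 171 to 207 CPM with saline and to 227 to 253 CPM with LPS, with 5 of 10 higher and 2 lower. Mural cell markers summed to 213 to 255 CPM with saline and to 168 to 217 CPM with LPS, with 1 of 10 higher and 2 lower. The 2 lower were Vtn, from 80.8 to 38.9 CPM, and Cspg4, from 20.5 to 10.9 CPM, which weigh heavily in that sum. Notch3, from 12.9 to 17.0 CPM, was the 1 higher. With the endothelial markers as a covariate, 7 collagens were higher and 14 lower, against 20.6% and 19.1% of all genes in that fit. Choroid plexus markers were scarce in cortex, at 17.5 to 22.5 CPM with saline and 16.5 to 30.6 CPM with LPS, and Ttr averaged 0.883 and 0.706 CPM. With them as a covariate 6 collagens were higher and 20 lower, against 19.5% and 18.3% of all genes in that fit. Of 8 oligodendrocyte lineage markers 5 were lower and 1 higher, with a median log2 change of -0.70, and their sums were 2596 to 3495 CPM with saline and 2343 to 3138 CPM with LPS. Gpr17, a marker of differentiating oligodendrocyte precursors, fell by 2.32 on the log2 scale. Of 6 astrocyte markers 2 were lower and 1 higher. Striatal markers ranged from 315 to 1741 CPM over the 8 libraries. With the striatal markers as a covariate 6 collagens were higher and 14 lower, against 21.6% and 20.1% of all genes in that fit.

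Genes that make and cross-link collagen changed in both directions with LPS, and the collagen receptors that passed were lower. Each count that follows is to be read against 21.5% higher and 19.7% lower among all genes tested, and several are near those shares. Of 18 genes for folding and modification, 5 were lower and 1 higher. P4ha1, the catalytic subunit of the prolyl hydroxylase that stabilises the helix, went from 56.3 to 21.04 CPM, a log2 change of -1.42 with SE 0.13 (edgeR adjusted p = 2.2e-05). Colgalt1, a collagen galactosyltransferase, and Plod1, a lysyl hydroxylase, fell by 0.40 and by 0.46 on the log2 scale. Of 12 processing and cross-linking genes tested, 4 were higher and 5 lower. Lox, the lysyl oxidase that starts cross-links, went from 0.726 ± 0.409 to 7.39 ± 2.57 CPM (SD, n = 4), a log2 change of 3.33 with SE 0.38 (edgeR adjusted p = 7.1e-05). Adamts14, which trims procollagen, rose by 2.25 on the log2 scale, and Pcolce2, an enhancer of C-terminal trimming, by 1.36. The 5 lower were Pcolce, Loxl1, Tll2, Tll1 and Loxl3, which fell by 1.24, by 1.08, by 0.94, by 0.87 and by 0.52.

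Partners of type IV collagen in the basement membrane were split too, with 4 of 15 higher and 6 lower. Of the fallers Lama3, Lama1 and Lamb2, which encode laminin chains, fell by 1.37, by 1.12 and by 0.43 on the log2 scale. Among 9 collagen receptors tested 5 were lower and 0 higher (edgeR). Mrc2, an endocytic receptor for collagen, fell by 1.41, Ddr1, a receptor tyrosine kinase, by 0.41, and Itga2, an integrin subunit at 0.443 CPM with saline, by 2.66. Of 10 signal genes of the TGF-beta and related pathways, 2 were lower and 0 higher, led by the inhibitory Smad7, which fell by 1.01, and Tgfb3, which fell by 0.45. Among the receptors 5 and among the signal genes 4 had an unadjusted edgeR p under 0.05, as had 49.6% of all genes tested.

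In hippocampus no collagen gene was called after nicotine. Of 43 tested, 0 passed at an edgeR adjusted p under 0.05, with a lowest adjusted p of 0.555, and DESeq2 and limma-voom also gave 0. Over all 18873 genes tested edgeR called 0%. At an unadjusted edgeR p under 0.05 there were 2 collagens, where 8.36% of all genes tested lay under that value. The group ranges did not overlap for 0 of the 43 and for 0.387% of all genes tested. The median log2 change was -0.023, against 0.0028 over all genes tested.

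Col24a1 and Col19a1 were those 2. Col24a1 ranged from 0.143 through a median of 0.290 to 0.427 CPM with saline and from 0.185 through 0.576 to 1.14 CPM with nicotine. The groups overlapped, and with 9 to 73 counts per library this is one of the scarcest members. Its log2 change was 1.08 with SE 0.38 (edgeR unadjusted p = 0.011, adjusted 0.555). Col19a1 ranged from 6.80 through 8.97 to 10.6 CPM with saline and from 7.64 through 12.3 to 13.4 CPM with nicotine. Again the groups overlapped, and the log2 change was 0.34 with SE 0.14 (edgeR unadjusted p = 0.025, adjusted 0.565).

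Col4a1 and Col4a2, which rose with LPS in cortex, were near level after nicotine. Col4a1 ranged from 26.1 through 34.1 to 38.1 CPM with saline and from 31.1 through 35.0 to 42.4 CPM with nicotine. Its log2 change was 0.085 with SE 0.094, and that of Col4a2 was 0.074 with SE 0.12. The ratio of Col4a1 to Col4a2 per kb was 0.748 ± 0.0556 with saline and 0.751 ± 0.0667 with nicotine (SD, n = 6). Of the 9 chain ratios none passed, with an adjusted exact permutation p of 0.939 for each. Type IV sums were 80.3 ± 10.3 and 83.7 ± 8.82 CPM, and fibrillar sums were 68.6 ± 15.1 and 65.9 ± 8.67 CPM. Whether LPS and nicotine differ in their effect was not tested, since each was given in another tissue and table.

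Several hippocampal collagens were highest in libraries rich in choroid plexus transcript, whose part in these levels was not tested. Ttr, the transport protein that choroid plexus makes in bulk, stood at 15.3, 1255, 58.9, 36.3, 3682 and 220.0 CPM in saline replicates 1 to 6. It stood at 63.1, 38.5, 31.3, 1123, 2167 and 64.4 CPM in nicotine replicates 1 to 6. Libraries over 1000 CPM were thus saline replicates 2 and 5 and nicotine replicates 4 and 5, 2 in each group.

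Col8a1, Col8a2, Col9a3, Col17a1, Col18a1 and Col6a3 were higher in each of those 4 libraries than in any of the other 8. These are 6 of the 43 collagens tested, and 2.03% of all genes tested did the same. Col8a1, a short-chain network collagen, stood at 4.55 to 20.2 CPM in the 4 libraries and at 0.670 to 1.52 CPM in the others. Col8a2, its partner, stood at 7.25 to 16.1 against 0.935 to 2.48 CPM, and Col9a3 at 14.5 to 38.5 against 5.32 to 8.36 CPM. Their order in the 4 libraries was that of Ttr, with saline replicate 5 highest and nicotine replicate 5 next.

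The remaining members of that set were nearer to the other libraries. Col17a1, a transmembrane collagen of hemidesmosomes, stood at 0.296 to 1.60 against 0.0803 to 0.264 CPM. Col18a1 stood at 4.27 to 8.25 against 2.35 to 4.05 CPM. Col6a3 stood at 3.10 to 8.90 against 1.74 to 2.72 CPM, and its highest library was nicotine replicate 4, which held the least Ttr of the 4. Col4a3 and Col4a4 were highest in saline replicate 5, at 3.23 and 3.80 CPM, and nicotine replicate 5 followed at 1.75 and 2.60 CPM. Nicotine replicate 4, at 0.537 and 0.957 CPM, lay within the range of the other libraries for both. No collagen tested was lower in all 4 libraries than in the other 8.

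**Figure D4:**
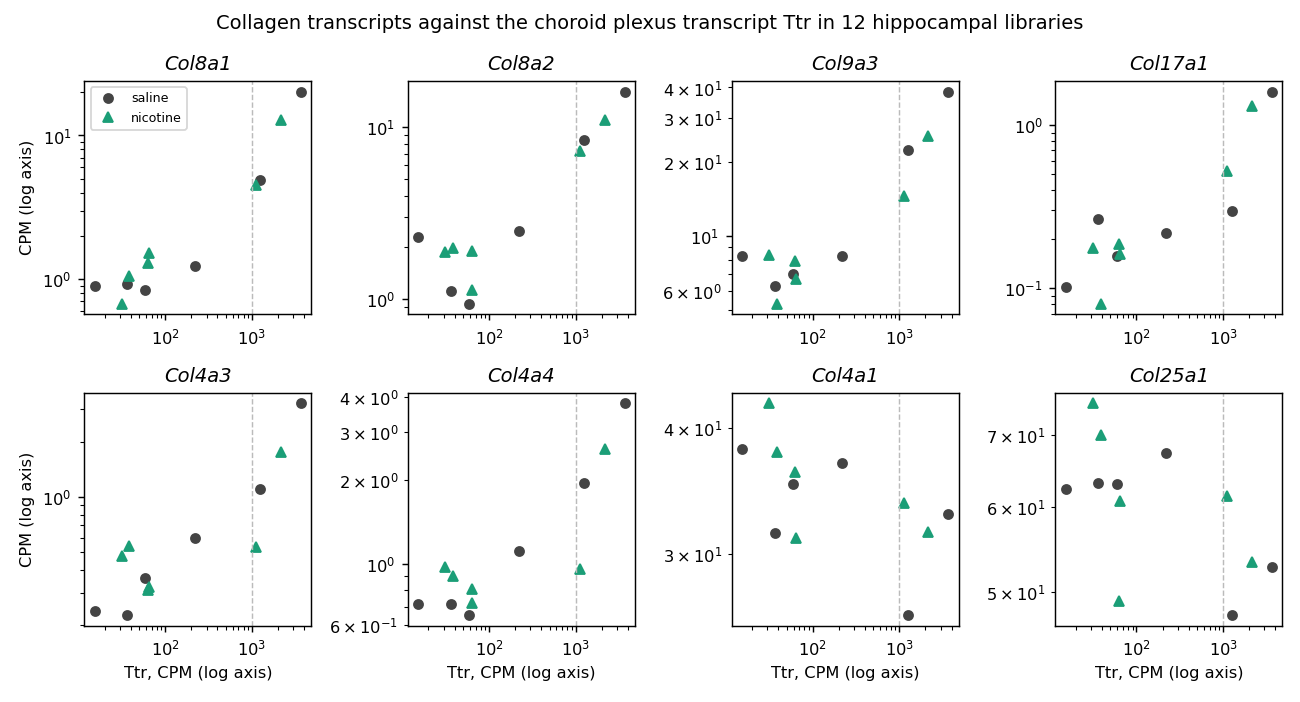
CPM of 8 collagen genes against CPM of Ttr in the 12 hippocampal libraries (both axes logarithmic), with saline as circles and nicotine as triangles. The dashed line is at 1000 CPM of Ttr. Col8a1, Col8a2, Col9a3 and Col17a1 are higher in each of the 4 libraries to its right than in any to its left, and Col4a1 and Col25a1 are not.

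Meningeal transcripts were also uneven in those libraries. The summed meningeal markers were 221 and 210 CPM in saline replicates 2 and 5 and 150 and 201 CPM in nicotine replicates 4 and 5, against 87.0 to 175 CPM in the other 8. Col1a2 stood in the same 4 libraries at 21.1, 16.8, 10.4 and 15.2 CPM, against 3.69 to 15.1 CPM in the rest, so its values overlapped. Without the 4 libraries, 0 collagens were called with nicotine (lowest edgeR adjusted p = 0.132), and 5 had an unadjusted edgeR p under 0.05. They were Col5a1 at a log2 change of 0.61, Col19a1 at 0.48, Col24a1 at 1.52, Col23a1 at 0.42 and Col26a1 at 0.37. The share of all genes at that unadjusted p in this smaller fit is not given here. The 5 thus have no background to be read against. At the adjusted threshold the fit called 0% of all genes higher and 0.0053% lower. With the choroid plexus markers as a covariate in all 12 libraries, 0 were called and 2 had an unadjusted edgeR p under 0.05. For that fit too, the share of all genes at that unadjusted p is not given here.

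After nicotine edgeR called 0 members of the 5 pathway lists. An unadjusted edgeR p under 0.05 was reached by 2 of 18 folding genes, 1 of 13 processing genes, 0 of 15 basement membrane partners, 3 of 9 receptors and 0 of 10 signal genes, against 8.36% of all genes tested. The median log2 change of these lists lay between -0.090 for the receptors and 0.067 for the basement membrane partners.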

How the data were processed

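Per the labels' protocols, RNA was taken up in TRIzol and poly(A) libraries were made with a Universal Plus mRNA-Seq kit. The authors deposited one table of unnormalised gene counts for each tissue. The submitters' processing notes name fastp, STAR, featureCounts, DESeq2 and mm10, with no versions. Neither annotation nor strandedness is given in the sources used here, so reads of overlapping or antisense genes cannot be told apart. Of 57180 hippocampal identifiers, 51884 were matched to symbols of GENCODE release M21, which also gave positions and exon lengths. The length of a gene is that of the merged exons of all its annotated transcripts.

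The tables were tested separately in R 4.3.3 with edgeR 4.0.16 (TMM factors, filterByExpr, quasi-likelihood F-test) over all genes. A call is a Benjamini-Hochberg adjusted p under 0.05. CPM values are TMM-normalised. SE is the log2 change over the root of F. Alternatives were DESeq2 1.42.0, limma-voom (limma 3.58.1), RLE factors, no filter, a 1 CPM filter, each library left out, a replicate block, marker covariates and other groupings. Steps were tested on simulated data. Members and lists were chosen with earlier results of these data known. Named genes are all called members, every Col4 gene, the 3 highest per kb of each class, hippocampal members at an unadjusted p under 0.05 and up to 3 genes of smallest p per pathway list. Others were chosen after their values were seen. No 2 libraries agreed within sampling noise (lowest chi-square per degree of freedom 11.8).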

Additional observations from a re-analysis of the deposited data

Results flagged for a closer look

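Within each group, 172 sets of values (a collagen gene in one group) were checked for a highest or lowest library that stood far from the rest, and 21 had one. For independent, normally spread values chance flags about 1 in 20 sets, and these sets share libraries. Of the 21, 7 were in saline replicate 5 and 4 in nicotine replicate 5 of hippocampus, the libraries with the most Ttr (3682 and 2167 CPM). In saline replicate 5 the highest values were Col8a1 at 20.2 CPM, Col5a1 at 11.8, Col18a1 at 8.25, Col4a5 at 5.16, Col4a3 at 3.23, Col14a1 at 1.70 and Col17a1 at 1.60 CPM. Nicotine replicate 5 was highest for Col8a1 at 12.8 CPM, Col4a4 at 2.60, Col4a3 at 1.75 and Col17a1 at 1.32 CPM.

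Other hippocampal libraries stood apart in single genes. Nicotine replicate 2 was highest for Col6a1 at 42.6 CPM and Col27a1 at 7.07 CPM, nicotine replicate 4 for Col6a3 at 8.90 CPM, and saline replicate 6 for Col20a1 at 8.72 CPM. In prefrontal cortex LPS replicate 1 was lowest for Col6a1 at 43.8 CPM and Col9a1 at 0.144 CPM. LPS replicate 2 was highest for Col1a2 at 21.6 CPM, and LPS replicate 3 for Col6a5 at 1.5002 CPM. Saline replicate 4 was lowest for Col16a1 at 14.4 CPM and Col13a1 at 0.9504 CPM.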

How the results depend on the processing

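In prefrontal cortex 6 collagens were higher as reported and 5 to 7 under the other settings that used the column names, and 14 were lower against 5 with the meningeal covariate to 20 with the choroid plexus covariate. Without 1 library at a time, the counts were 6 to 7 higher and 13 to 17 lower. The meningeal covariate gave 5 lower, and grouping by title gave 0 higher and 0 lower, as it did among all genes tested. The replicate block gave 6 higher and 13 lower. In that fit with the replicate block the Col1a1 change was -0.99 and did not pass (edgeR adjusted p = 0.065). Same-numbered libraries correlated at -0.16 to -0.035 in cortex and at -0.17 to 0.44 in hippocampus, so the numbers were not taken to pair them. Col15a1, Col27a1, Col26a1, Col4a1, Col4a2, Col4a6, Col5a3 and Col6a2 kept their calls in all 19 alternatives that used the column names. In hippocampus 0 were called in every setting, and 2 at an unadjusted p under 0.05 became 1 with the 1 CPM filter, 1 with the replicate block, 5 without the 4 libraries high in Ttr, and 1 to 3 without 1 library at a time. Shares of all genes at that unadjusted p are not given for these other settings.

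Sign changes were followed for the members that the naming rule picked, and none of the changed values passed the test. In cortex these were Col1a2 at 0.22 with the meningeal covariate, and Col4a4 at 0.0055 with the endothelial covariate, 0.29 with agreeing labels and from -0.31 to 0.029 without 1 library at a time. In hippocampus, without the libraries high in Ttr, they were Col1a1 at 0.26, Col1a2 at 0.18, Col25a1 at -0.0078, Col4a3 at 0.20, Col4a4 at 0.090, Col4a5 at 0.14 and Col4a6 at 0.30. With the meningeal covariate they were Col1a1 at 0.031, Col4a5 at 0.017 and Col4a6 at 0.14. With the choroid plexus covariate they were Col1a1 at 0.0065, Col4a5 at 0.0077 and Col4a6 at 0.073. Col4a6 was 0.047 with limma-voom and 0.053 with the replicate block. Without 1 library at a time the hippocampal ranges were Col1a1 -0.20 to 0.15, Col1a2 -0.39 to 0.09, Col25a1 -0.013 to 0.11, Col4a2 -0.0093 to 0.14, Col4a3 -1.14 to 0.37, Col4a4 -0.78 to 0.17, Col4a5 -0.12 to 0.14, Col4a6 -0.17 to 0.22, Col6a1 -0.10 to 0.17 and Col9a3 -0.81 to 0.12. The cause was not tested. The median 95% interval of a collagen log2 change reached 0.52 to either side in cortex and 0.42 in hippocampus, against 0.29 and 0.22 over all genes, and it is wider for scarce members.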
